A study of Mus musculus with 3 samples.

Results

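The genes described here are 36 genes of cholesterol and fatty acid synthesis and of the sterol-sensing machinery that controls them, chosen by name and matched to the gene name given for each spot, out of 27720 named genes on the arrays. They comprise 18 enzymes of sterol synthesis, 12 enzymes of fatty acid synthesis, desaturation, elongation and activation, and 6 genes for the sterol regulatory element-binding proteins (SREBP), their partners and a sterol carrier. Expression was measured in J774A.1 cells, an established mouse macrophage-like cell line, after 6 h in 1 of 3 media. RPMI denotes RPMI medium with 10% fetal bovine serum, EBSS denotes Earle's Balanced Salt Solution, which holds glucose but no amino acids and for which the labels name no serum, and the last medium was EBSS to which 10 µM of the p38 MAP kinase inhibitor SB202190 was added. The wording of the design leaves room for RPMI in every medium; the grouping here follows the sources named for each channel. No solvent control for the inhibitor is named in the labels. Since whole media were compared, the parts of serum, amino acids and other ingredients cannot be told apart.

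RNA of the 3 conditions was hybridised on 3 Agilent 2-colour arrays that closed a loop, with every medium on 2 of them, under opposite dyes. Each condition was 1 sample, no separate cultures are named, and no p-value was computed. Every error below is a technical standard error (SE) from the disagreement around the loop, and it leaves out the spread between cultures. In each channel 40.1% to 49.9% of spots stood well above background. Of 9 macrophage markers on the arrays (Cd14, Cd68, Csf1r, Emr1, Fcgr1, Itgam, Lyzs, Msr1 and Ptprc), 9 were well above background in all 6 channels, while no marker on the lists for hepatocytes, adipocytes, fibroblasts, epithelial, T or B cells was. In such bulk RNA, fewer cells of a type and less RNA per cell cannot be told apart.

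SREBP proteins are transcription factors that are made as membrane proteins of the endoplasmic reticulum. When cells are short of sterol, the escort protein SCAP carries them to the Golgi, where proteases release the active part; when sterol is plentiful, INSIG proteins hold SCAP back. SREBP-2 is known mainly for the genes of cholesterol synthesis and uptake and SREBP-1 for those of fatty acid synthesis. Macrophages are known for handling large amounts of cholesterol from engulfed material and lipoproteins.

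SREBP proteins are known to bind short sterol elements in promoters, next to sites of the factors NF-Y (CCAAT box) and Sp1 (GC box). The stretches of 200 bases before the annotated start of 4 members are shown. Dhcr7, Fasn and Mvd were chosen for their higher ratios with SB202190 in EBSS described below. Scd2, whose ratio there was above that of Mvd, had no promoter sequence in the set used. Hmgcs1 held the one sterol element found among the sterol enzymes. The stretches come from RefSeq on GRCm38.p6, read 5′ to 3′ on the gene's strand. Capitals mark matches on either strand to TCACNCCAC (sterol element), CACGTG (E-box), CCAAT or GGGCGG (GC box).
Hmgcs1 (chr13:119690151-119690350, plus strand): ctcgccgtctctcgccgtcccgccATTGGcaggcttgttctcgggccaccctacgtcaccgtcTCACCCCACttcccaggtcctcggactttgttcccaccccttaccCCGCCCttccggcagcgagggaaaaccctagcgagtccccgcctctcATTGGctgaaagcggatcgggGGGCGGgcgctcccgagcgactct
Mvd (chr8:122443423-122443622, minus strand): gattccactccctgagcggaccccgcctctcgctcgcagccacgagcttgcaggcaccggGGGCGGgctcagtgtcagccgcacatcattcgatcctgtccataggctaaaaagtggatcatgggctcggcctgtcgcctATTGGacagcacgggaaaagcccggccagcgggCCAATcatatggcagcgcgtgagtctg
Dhcr7 (chr7:143830014-143830213, plus strand): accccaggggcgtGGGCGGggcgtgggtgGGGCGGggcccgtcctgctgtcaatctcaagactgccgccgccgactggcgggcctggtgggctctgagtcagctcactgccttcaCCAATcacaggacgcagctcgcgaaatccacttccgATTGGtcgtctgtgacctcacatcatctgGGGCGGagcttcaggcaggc
Fasn (chr11:120824548-120824747, minus strand): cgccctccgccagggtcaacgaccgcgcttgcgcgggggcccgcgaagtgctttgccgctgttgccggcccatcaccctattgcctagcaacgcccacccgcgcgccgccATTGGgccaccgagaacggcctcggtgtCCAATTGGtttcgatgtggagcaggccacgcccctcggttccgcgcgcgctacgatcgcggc

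Each of these stretches held CCAAT on one or both strands. Counting the base before the start site as -1, the matches began at -60 and -27 in Mvd, at -85 and -49 in Dhcr7, at -176 and -45 in Hmgcs1, and at -90, -62 and -59 in Fasn, where the last pair overlap on opposite strands. The sterol element of Hmgcs1 began at -137. Dhcr7 has 3 annotated windows, and the one with the most matches is shown. Matches were counted over windows of 300 bases (250 before the start and 50 after). CCAAT was found for 14 of 15 sterol enzymes and 6 of 9 fatty acid enzymes that had a window. The share was 82.8% of 29 members, against 41.1% of 27025 genes with a window. Of 10790 genes well above background in all 6 channels, 6236 had a window under the same symbol, and 43.4% of these held CCAAT. For members, older symbols were matched as well. The GC box was found for 82.8% of members, against 38.2% of all genes and 71.2% of those well above background. The E-box was found for 20.7% of members (6 of 29), against 8.09% of all genes and 12.7% of those well above background, and the sterol element for 2 of 29, Hmgcs1 and Acsl1, against 1.44% of all genes. A gene with several windows counts when any of them holds a match. A match is a string of letters and not a shown site, and no match says only that these letters are not in this window.

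In all, 34 of the 36 genes were well above background in all 6 channels. The exceptions were Scd1 and Elovl6, a stearoyl desaturase and a fatty acid elongase, which were well above background in none and are left out of the counts. Each ratio has a pair of readings, a direct one from the array on which both media met and an indirect one from the remaining 2 arrays. To be called higher or lower, a gene needed a log2 ratio of size 1 or more, with readings that shared its sign and were each 0.5 or more in size. Levels are log2 intensities of a gene's brightest probe after normalization, and they are compared between media only. The technical SE of a member's log2 ratio was 0.067 to 0.22. The comparisons share samples: EBSS enters the first with RPMI and the second with SB202190, so a low or high reading of the EBSS sample moves both in opposite directions.

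**Figure D1:**
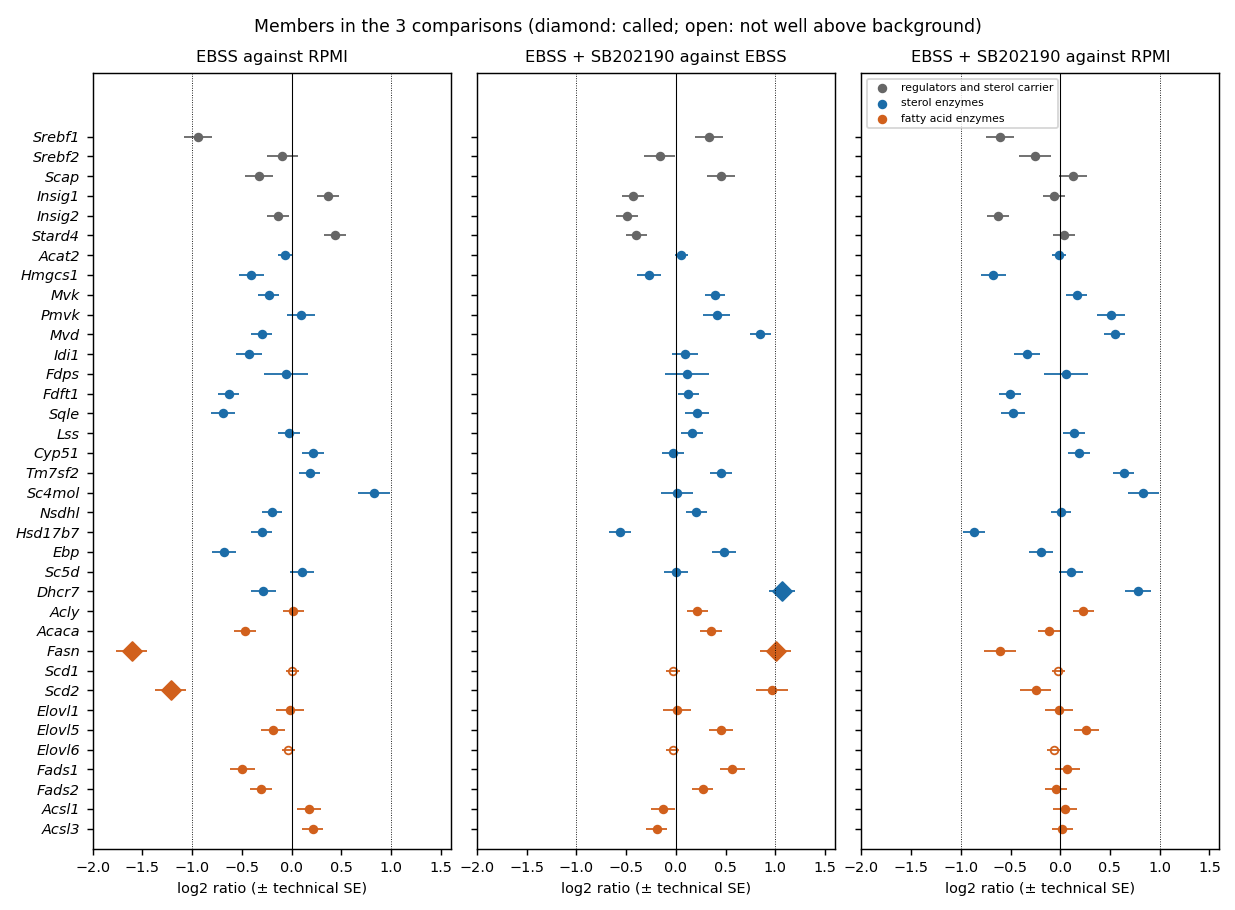
Log2 ratio of each of the 36 genes in the 3 comparisons, with bars for the technical SE, colours for the 3 groups of genes, diamonds for called genes and open circles for the 2 genes not well above background. Fasn and Scd2 lie below -1 in EBSS against RPMI, and Dhcr7 and Fasn reach 1 with SB202190 against EBSS, where Scd2 (0.97) lies just short.

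EBSS was first set against RPMI, to describe 6 h in the salt solution. The genes with the lowest ratios were Fasn, which encodes the fatty acid synthase and was 3.05-fold lower, and Scd2, which encodes a desaturase of its products and was 2.32-fold lower. None of the 34 measured genes was called higher in EBSS, where 4.48% of all 11899 measured genes were (533), and 2 were called lower, where 2.84% were (338). Both called genes were among the 10 measured fatty acid enzymes. None of the 18 sterol enzymes and none of the 6 regulators was called. Over both directions 5.88% of the members and 7.32% of all measured genes were called, so the members' count does not exceed the background. The background counts depend on the processing: of the called genes 61.2% were higher, but 47.0% on the scanner software's own log ratios and 99.5% with median centring.

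EBSS with SB202190 was then set against EBSS, to describe the inhibitor in starved cells. Here Dhcr7, the last enzyme of one route to cholesterol, was 2.09-fold higher (log2 ratio 1.06) and Fasn was higher by a log2 ratio of 1.00, with Scd2 (0.97) and Mvd (0.85) just short. Of the 34 genes 2 were called higher, against 0.905% of 11714 measured genes (106), and none was called lower, against 2.91% (341). Over both directions 5.88% of the members and 3.82% of all measured genes were called, and the members' share rests on 2 genes. Of all genes called here 23.7% were higher, but 50.2% on the scanner software's log ratios, 36.5% with negative control spots as background and 2.4% with median centring. EBSS with SB202190 against RPMI, which holds both changes, had no call among the members in either direction, where 1.47% of 11886 measured genes were higher (175) and 2.41% lower (287), or 151 and 90 with median centring.

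Among the regulators, Srebf1, which encodes SREBP-1, had the lowest ratio in EBSS. Its level was 14.27 in Cy5 and 14.35 in Cy3 in RPMI, 13.41 and 13.40 in EBSS, and 13.67 and 13.81 in EBSS with SB202190. The media did not overlap, with RPMI highest and EBSS lowest. Srebf1 had a log2 ratio of -0.94 ± 0.14 in EBSS against RPMI, just short of a call, with readings of -0.86 and -1.08. With SB202190 it was 0.33 ± 0.14 against EBSS and -0.60 against RPMI. Srebf2, which encodes SREBP-2, had ratios of -0.09, -0.16 and -0.26 ± 0.16 in the same order, and its own readings around the loop disagreed by 0.67, the most of any member. Its measured probes ran from -0.38 to 0.16 in EBSS against RPMI, so no direction is given for Srebf2.

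The genes that retain or escort the SREBP proteins, and the sterol carrier, gave small ratios. Insig1, a retention factor that is itself an SREBP target, had a level of 9.44 and 9.49 in RPMI, 9.93 and 9.86 in EBSS, and 9.38 and 9.54 in EBSS with SB202190. EBSS was highest, and the other media overlapped. The log2 ratio of Insig1 was 0.37 ± 0.11 in EBSS against RPMI and -0.43 with SB202190 against EBSS, but a second, dimmer probe gave 0.00 and -0.02. Insig2, the other retention factor, had ratios of -0.13, -0.49 and -0.62 ± 0.11, with readings against RPMI under SB202190 of -0.42 and -1.03. Its readings around the loop disagreed by 0.61. They had opposite signs in EBSS against RPMI (-0.34 and 0.28) and lay far apart with SB202190 against EBSS (-0.70 and -0.08). A dimmer Insig2 probe gave -0.17, -0.17 and -0.34. Scap, the escort, had ratios of -0.32 ± 0.14 in EBSS, 0.46 with SB202190 against EBSS and 0.13 against RPMI. Stard4, which encodes a carrier of sterol between membranes, had ratios of 0.43 ± 0.11, -0.40 and 0.04. A second Stard4 probe gave 0.38 and -0.41, but the remaining one gave -0.23 and 0.30, the opposite signs. The readings of that last probe lay far apart, at -0.49 and 0.28 in EBSS against RPMI. With SB202190 against EBSS they were 0.04 and 0.81.

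**Figure D2:**
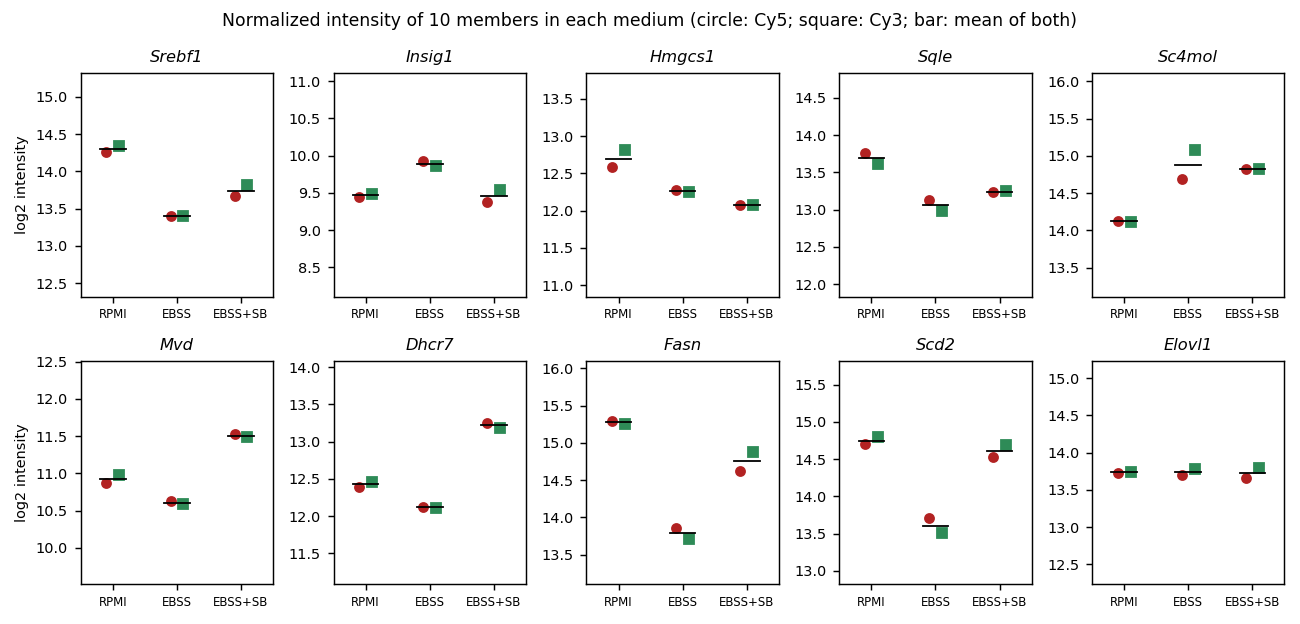
Normalized log2 intensity of 10 members in each medium, with a circle for Cy5, a square for Cy3 and a bar for their mean; each panel spans 3 log2 units around its own mean. Fasn and Scd2 are lowest in EBSS, Dhcr7 and Mvd highest in EBSS with SB202190, and Elovl1 is level over the media.

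The sterol enzymes act in sequence, from acetyl-CoA units through mevalonate and squalene to cholesterol. At the entry, Acat2, the cytosolic acetoacetyl-CoA thiolase, was dim and had ratios between -0.07 and 0.05. On the scanner software's log ratios Acat2 stood at -0.27 in EBSS against RPMI and 0.42 with SB202190 against EBSS. The size of its ratios is therefore not settled here. Hmgcs1, the synthase that makes HMG-CoA, had a level of 12.58 and 12.81 in RPMI, 12.28 and 12.24 in EBSS, and 12.07 and 12.08 in EBSS with SB202190. It stepped down over these media without overlap. The log2 ratio of Hmgcs1 was -0.40 ± 0.12 in EBSS against RPMI, -0.27 with SB202190 against EBSS and -0.67 with SB202190 against RPMI, with readings of -0.74 and -0.54 for the last. A much dimmer Hmgcs1 probe gave -0.02, -0.11 and -0.13, or 0.03, -0.45 and -0.42 on the scanner software's log ratios.

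The kinases and the decarboxylase of the mevalonate steps had ratios above 0 with the inhibitor against EBSS, all below the size for a call. Mvd, the mevalonate diphosphate decarboxylase, had a level of 10.88 and 10.98 in RPMI, 10.63 and 10.59 in EBSS, and 11.52 and 11.49 in EBSS with SB202190. The inhibitor's channels lay above all others. Its log2 ratio was 0.85 ± 0.11 with SB202190 against EBSS, with readings of 0.86 and 0.83, and 0.55 against RPMI, while EBSS against RPMI gave -0.30. The Mvd probe lies at chr8:125319940-125319999 (mm8). Mvk, the mevalonate kinase, had ratios of -0.23 ± 0.10, 0.40 and 0.16 in the 3 comparisons, and its other probe -0.20, 0.30 and 0.11. Pmvk, the phosphomevalonate kinase, had 0.10 ± 0.14, 0.41 and 0.51, and its other probe 0.10, 0.37 and 0.48.

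The steps to squalene and its oxide had ratios below 0 in EBSS and, but for Fdps, also with the inhibitor against RPMI. Sqle, the squalene epoxidase, had a level of 13.76 and 13.62 in RPMI, 13.13 and 12.98 in EBSS, and 13.24 and 13.25 in EBSS with SB202190. RPMI was highest in both dyes and the EBSS media did not overlap but lay close. Sqle had a log2 ratio of -0.69 ± 0.12 in EBSS against RPMI, 0.21 with SB202190 against EBSS and -0.48 against RPMI. Fdft1, the squalene synthase, had a level of 11.30 and 11.31 in RPMI, 10.67 and 10.65 in EBSS, and 10.83 and 10.77 in EBSS with SB202190. Its log2 ratios were -0.63 ± 0.11, 0.12 and -0.51. Idi1, the isopentenyl diphosphate isomerase, had -0.43 ± 0.13, 0.09 and -0.34, but its probe's accession matched no RefSeq entry used here and the file places it on chromosome 2 (mm8), whereas Idi1 lies on chromosome 13. A dimmer Idi1 probe, also placed on chromosome 2, gave -0.05, -0.12 and -0.17, with the opposite sign for SB202190 against EBSS. Fdps, the farnesyl diphosphate synthase, had -0.06, 0.11 and 0.06, all within its SE of 0.22, and a much dimmer probe -0.32 in EBSS.

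From lanosterol onwards the enzymes did not share a sign in EBSS against RPMI. Lss, the lanosterol synthase, had ratios of -0.03 ± 0.11, 0.16 and 0.14, and Cyp51, the lanosterol demethylase, 0.21 ± 0.11, -0.03 and 0.18. Sc4mol (now Msmo1), the methylsterol monooxygenase, was the member with the highest ratio in EBSS. Its level was 14.13 and 14.12 in RPMI, 14.69 and 15.08 in EBSS, and 14.83 and 14.82 in EBSS with SB202190. RPMI lay below both EBSS media, which overlapped. Sc4mol had a log2 ratio of 0.83 ± 0.16 in EBSS against RPMI, with readings of 0.95 and 0.58, and 0.84 with SB202190 against RPMI, just short of a call, while the inhibitor against EBSS gave 0.01.

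Nsdhl and Hsd17b7 act with Sc4mol to remove the methyl groups at carbon 4 of the sterol ring, and both had ratios below 0 in EBSS against RPMI. Hsd17b7, the keto reductase of that complex, had a level of 10.88 and 10.89 in RPMI, 10.67 and 10.57 in EBSS, and 10.03 and 10.10 in EBSS with SB202190. It stepped down without overlap. Hsd17b7 had a log2 ratio of -0.30 ± 0.11 in EBSS against RPMI, -0.56 with SB202190 against EBSS and -0.86 against RPMI, with readings of -0.86 and -0.87 for the last. Its other probe gave -0.06, -0.67 and -0.72. Nsdhl, the dehydrogenase, had ratios of -0.20 ± 0.10, 0.21 and 0.01, and its 3 measured probes ran from -0.20 to -0.12 in EBSS against RPMI. Tm7sf2, a sterol reductase of the step after Cyp51, had 0.18 ± 0.11, 0.45 and 0.64, with readings of 0.76 and 0.38 for the last.

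At the final steps, Ebp, the sterol isomerase, had a level of 13.54 and 13.39 in RPMI, 12.89 and 12.72 in EBSS, and 13.34 and 13.23 in EBSS with SB202190. EBSS was lowest. The log2 ratio of Ebp was -0.68 ± 0.12 in EBSS against RPMI, with readings of -0.82 and -0.40, then 0.48 with SB202190 against EBSS and -0.19 against RPMI. Sc5d, the desaturase that follows, had 0.11 ± 0.12, 0.00 and 0.11. A much dimmer Sc5d probe gave -0.10, 0.14 and 0.04, or -0.43, 0.64 and 0.20 on the scanner software's log ratios. Dhcr7, the 7-dehydrocholesterol reductase, had a level of 12.40 and 12.46 in RPMI, 12.13 and 12.11 in EBSS, and 13.25 and 13.18 in EBSS with SB202190. The inhibitor's channels lay above all others and EBSS below. For Dhcr7 the log2 ratio was 1.06 ± 0.13 with SB202190 against EBSS, with readings of 1.05 and 1.08, 0.78 against RPMI, and -0.28 in EBSS against RPMI. Its second, dimmer probe gave 0.55, 0.56 and 0.01 in that order. On the scanner software's log ratios those Dhcr7 probes gave 1.15 and 1.23 with SB202190 against EBSS. The brighter one lies at chr7:143657738-143657797 (mm8).

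The fatty acid enzymes start with Acly, which makes cytosolic acetyl-CoA from citrate, and Acaca, which makes malonyl-CoA. Acly had ratios of 0.02 ± 0.11, 0.22 and 0.23. Acaca was dim, with a level of 9.48 and 9.59 in RPMI, 8.97 and 8.95 in EBSS, and 9.55 and 9.26 in EBSS with SB202190. EBSS was lowest and the other media overlapped. The log2 ratio of Acaca was -0.46 ± 0.11 in EBSS against RPMI, 0.35 with SB202190 against EBSS and -0.11 against RPMI. The ratios of the scanner software, which differ in both background subtraction and dye normalization, gave -1.49, 1.39 and -0.10. The other 3 Acaca probes were dimmer still, and none of them was well above background in all 6 channels.

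Fasn, which encodes the fatty acid synthase, had the lowest ratio of all members. Its level was 15.30 in Cy5 and 15.26 in Cy3 in RPMI, 13.85 and 13.71 in EBSS, and 14.63 and 14.88 in EBSS with SB202190. The media did not overlap, with the inhibitor between EBSS and RPMI. The log2 ratio of Fasn was -1.61 ± 0.16 in EBSS against RPMI, with readings of -1.58 and -1.65. With SB202190 it was 1.00 ± 0.16 against EBSS, with readings of 1.02 and 0.96, and -0.61 against RPMI. The second Fasn probe was much dimmer and gave 0.03, 0.10 and 0.14, or -0.12, 0.37 and 0.25 on the scanner software's log ratios. The calls for Fasn therefore rest on its bright probe at chr11:120623236-120623295 (mm8), and the probes disagree in the EBSS comparison with either background. With the median over measured probes, Fasn stood at -0.79 in EBSS and 0.55 with the inhibitor, and was not called.

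Scd2, a stearoyl-CoA desaturase that makes monounsaturated fatty acids, had the next lowest ratio in EBSS. Its level was 14.70 and 14.80 in RPMI, 13.71 and 13.50 in EBSS, and 14.53 and 14.70 in EBSS with SB202190. EBSS was lowest, and the other media lay next to each other, with RPMI above. Scd2 had a log2 ratio of -1.22 ± 0.16 in EBSS against RPMI, with readings of -1.20 and -1.25, then 0.97 with SB202190 against EBSS and -0.25 against RPMI. It has 1 probe, at chr19:44359845-44359904 (mm8). Its relative Scd1 was not well above background in any channel, so no ratio is given for it.

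The desaturases of polyunsaturated fatty acids had smaller ratios, below 0 in EBSS against RPMI and above 0 with SB202190 against EBSS. Fads1, the delta-5 desaturase, had a level of 12.12 and 12.10 in RPMI, 11.61 and 11.67 in EBSS, and 12.12 and 12.21 in EBSS with SB202190. EBSS was lowest and the other media overlapped. Fads1 had a log2 ratio of -0.50 ± 0.12 in EBSS against RPMI, 0.57 with SB202190 against EBSS and 0.07 against RPMI. Fads2, the delta-6 desaturase, had -0.31 ± 0.11, 0.27 and -0.04. Of the elongases, Elovl5 had -0.19 ± 0.12, 0.45 and 0.26, with its other probe at -0.11, 0.34 and 0.23. Elovl1 had ratios between -0.02 and 0.01, below its SE of 0.14. The acyl-CoA synthetases, which activate fatty acids for use, had the opposite signs to Fasn: Acsl1 had 0.18 ± 0.12, -0.13 and 0.05, and Acsl3 0.21 ± 0.11, -0.19 and 0.02.

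**Figure D3:**
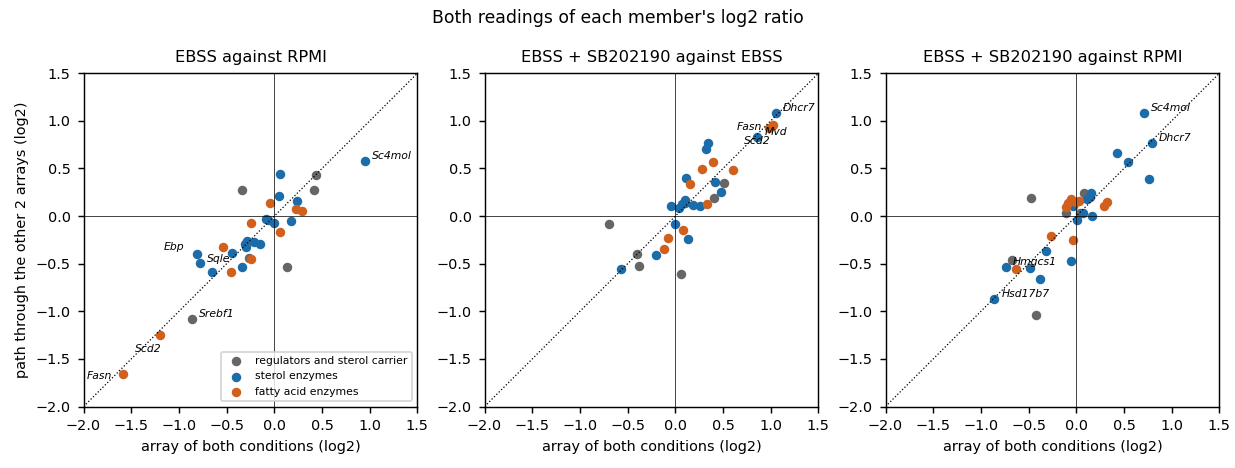
Each member's log2 ratio read directly on the array where both media met (horizontal) against the indirect reading (vertical), for the 34 measured genes, with the line of equal values dotted. Fasn, Scd2, Mvd, Dhcr7 and Hsd17b7 lie close to the line, and regulators such as Srebf2 and Insig2 lie farthest from it.

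Sterol and fatty acid enzymes were then set side by side. In EBSS against RPMI the median log2 ratio was -0.21 for the sterol enzymes and -0.25 for the fatty acid enzymes, against 0.00 for all measured genes, and 13 of 18 and 7 of 10 were below 0, against 49.6% of all genes. With median centring, 10 of 18 and 5 of 10 lay below the median of all genes. The medians of the lists differed by 0.04, and no error was computed for that difference. The lowest fatty acid enzyme stood at -1.61 and the lowest sterol enzyme at -0.69. At a size of at least 0.5, 3 sterol enzymes were lower (Sqle, Ebp and Fdft1) and 1 was higher (Sc4mol), while 2 fatty acid enzymes were lower and none was higher. Of all 11899 measured genes 1403 were lower and 1569 higher by that size. No test of a difference between the lists was made, as the genes were chosen with results known and each medium was 1 sample.

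With SB202190 against EBSS the median was 0.14 for the sterol enzymes and 0.31 for the fatty acid enzymes, against 0.00 for all measured genes. Of the sterol enzymes 15 of 18 lay above 0 and of the fatty acid enzymes 8 of 10, against 5863 of all 11714 measured genes. Below the median of all genes lay 3 of 18 and 2 of 10, or 8 of 18 and 3 of 10 with median centring. The sterol median was lower than that of the fatty acid enzymes by 0.18 on the direct arrays and by 0.28 over the other path. The regulators and the carrier had ratios on both sides of 0. Srebf1 (0.33) and Scap (0.46) lay above, and Insig1, Insig2, Stard4 and Srebf2 below. Of the latter, Srebf2 had no settled direction and Stard4 had a probe of the opposite sign. The readings of Insig2 lay far apart, at -0.70 and -0.08. Against RPMI, cells in EBSS with SB202190 had medians of 0.08 for sterol and 0.00 for fatty acid enzymes. Around that median the sterol enzymes were spread to both sides. In that comparison, 5 sterol enzymes were higher by at least 0.5 (Pmvk, Mvd, Tm7sf2, Sc4mol and Dhcr7) and 3 lower (Hmgcs1, Fdft1 and Hsd17b7). Among the fatty acid enzymes 1 was lower by that size, Fasn, and none higher. Of all 11886 measured genes 870 were higher and 1118 lower by that size.

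**Figure D4:**
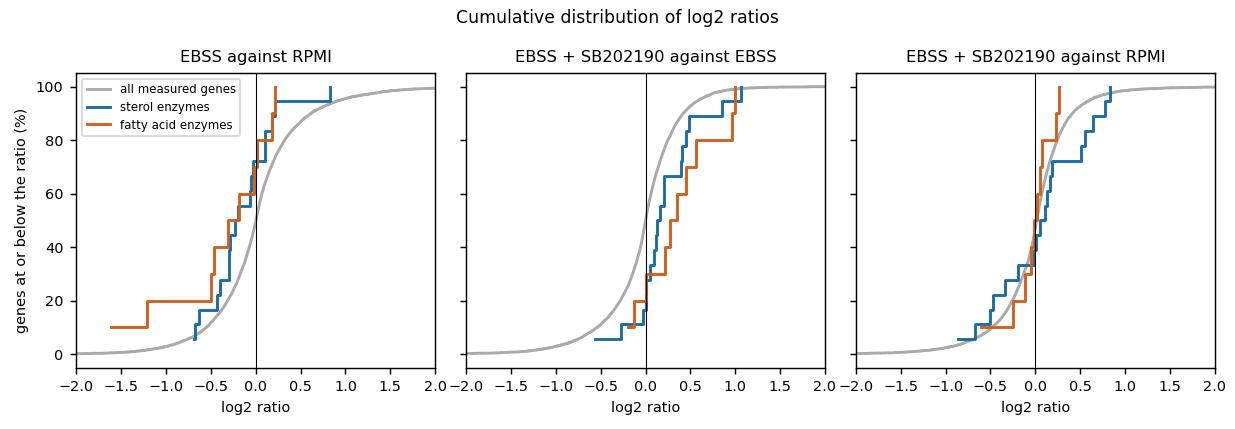
Cumulative share of genes (%) at or below each log2 ratio in the 3 comparisons, for all measured genes, the 18 sterol enzymes and the 10 measured fatty acid enzymes; the axis is limited to 2 in each direction. Both lists lie left of all genes in EBSS against RPMI and right of them with SB202190 against EBSS, and the sterol enzymes extend farther to both sides against RPMI.

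Other genes of these pathways were taken from a list of 28, of which 27 were on the arrays under the listed name and 22 or 23 were measured in each comparison. Their medians were 0.14 in EBSS against RPMI, -0.05 with SB202190 against EBSS and 0.20 against RPMI. In EBSS against RPMI 1 of 23 was called higher and 1 lower, about the share over all genes (4.48% and 2.84%), and none was called in the other comparisons. The called genes are given as values only. Soat1, which esterifies cholesterol for storage, was the one higher, at 1.06 ± 0.16, or 2.08-fold, with readings of 1.26 and 0.66 and other probes at 1.10 and 0.78. Its level was 13.92 and 14.10 in RPMI, 14.96 and 15.18 in EBSS, and 14.27 and 14.49 in EBSS with SB202190. The media did not overlap, with EBSS highest, and the ratio with SB202190 against EBSS was -0.68. Acsl5, an acyl-CoA synthetase, was the one lower, at -1.14 ± 0.12. Its level was 12.77 and 12.90 in RPMI, 11.77 and 11.70 in EBSS, and 12.60 and 12.75 in EBSS with SB202190, with EBSS lowest. The ratio of Acsl5 with SB202190 against EBSS was 0.91, which differs in sign from that of the related members Acsl1 and Acsl3.

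How far the leading ratios moved with the processing is shown for 6 of them. The direction of Fasn in EBSS held in each, while that of Scd2 turned to 0.13 with median centring in place of the intensity-dependent loess step. That setting puts the median of all measured genes at 0.81, so Fasn (-0.24) and Scd2 both stayed below it. Of the 34 members, 23 changed sign in EBSS against RPMI with median centring, and 7 changed side relative to the median of all genes. Dhcr7 ran from 0.34 with that setting, where the median of all genes was -0.45, to 1.30 with equal spread between arrays. The negative control spots read a median of 218 to 228 in Cy3 and 106 to 108 in Cy5, above the local background of 55 to 59 and 65 to 66. With the negative control spots as background, Acaca stood at -1.09 in EBSS against RPMI, and with no background correction at -0.85, so the size of its ratio is not settled here.

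**Figure D5:**
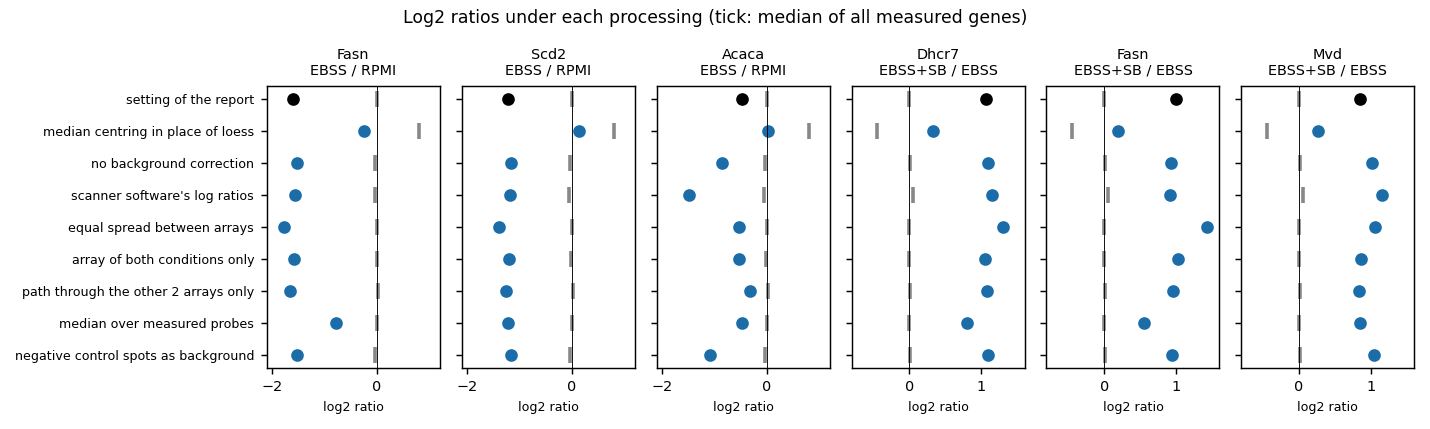
Log2 ratios of 6 gene and comparison pairs (one per panel) under the setting of the report (black) and 8 other ways of processing (blue), with a grey tick for the median of all measured genes under each. Acaca in EBSS against RPMI runs from -1.49 to near 0, and Fasn with SB202190 against EBSS from 0.19 to 1.43.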

How the data were processed

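The scanner's output was made with Agilent Feature Extraction 9.5.3.1, as its headers state. It holds raw values, per the file headers: a mean intensity per spot and a local background (median intensity) for Cy5 and for Cy3. A log10 ratio (Cy5 over Cy3) was deposited as well, computed by the scanner software after its own background subtraction and dye normalization. Marks of other kinds (well above background, saturated, outlier, control) were deposited with each spot. The authors' deposited series table of log2 ratios, set against the scanner's log ratios of the same arrays, correlated at 0.994, 0.997 and 0.987, had medians of -0.0854, -0.0766 and -0.166 and was within 0.01 for 65.6% to 69.6% of probes, so it holds uncentred log2 ratios of Cy5 over Cy3.

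Intensities were background-corrected with normexp (offset 50) and normalized within arrays by loess in limma 3.58.1 (R 4.3.3), with control spots (1639 of 45018) and outliers (136 to 178 per array) at weight 0 and then left out. No spot was saturated, and 49 probes had no value left. Spots of a probe were averaged, and the log2 ratios were fitted by least squares to all 3 arrays. Technical SEs came from the sum around the loop in 30 bins of intensity (median 0.11). The number of arrays limits this precision. The fit, SEs and calls were tested on simulated log ratios with the same noise at every intensity. That simulation did not cover background correction, loess or noise that varies with intensity. Levels were log2 intensities after loess and Aquantile normalization between arrays. A gene is all probes of 1 name in the files, represented by the brightest; it counted as measured where that probe stood well above background on both arrays of 1 or both of the media compared. Channels of the same condition correlated across genes at 0.995 to 0.997 and those of different conditions at 0.944 to 0.971. The arrays share a slide, so slide does not separate the conditions. Python 3.11.15, numpy 2.4.6, pandas 2.3.3 and matplotlib 3.10.9 were used.

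All members are named, and of the other genes of the pathway those called in any comparison. Members and lists were chosen with earlier results of these data known. In total, 10 alternatives were planned and 1, the negative control spots as background, was added after seeing the data. Promoters were matched by symbol, older symbols included, for 29 of 36 members in RefSeq (GRCm38.p6); probe positions are those of the files, on mm8.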

Additional observations from a re-analysis of the deposited data

How the results depend on the processing

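With 1 sample per condition and technical errors only, list medians are given below less the median of all measured genes. Over the alternatives, 96 values stayed close: list medians and their differences moved by less than the technical SE of a typical list gene, and counts of called members by at most 1.5 times. The other 27 moved further. In EBSS against RPMI the sterol median was -0.059 with median centring and -0.34 with the scanner's ratios, and the fatty acid median -0.014 with median centring and -0.11 with no filter on dim probes, where sterol less fatty acid was -0.10. Called members there numbered 13 with median centring (38.2% of 34, all higher, against 36.0% of all genes), 1 with the median over probes (2.94% against 5.81%) and 7 at a log2 ratio of 0.6 (20.6% against 18.9%). With SB202190 against EBSS the fatty acid median was 0.44 with no background correction, 0.49 with the scanner's ratios, 0.43 with equal spread between arrays and 0.45 with the negative control spots, and the sterol median 0.30 with the scanner's ratios. Called members there numbered 0 with median centring and with the median over probes, where 6.77% and 2.83% of all genes were called, 1 over the path through the other 2 arrays (2.94% against 5.18%), and 4 with equal spread between arrays and at 0.6 (11.8% against 7.52% and 13.3%). Against RPMI with SB202190, the fatty acid median was 0.12 with median centring (sterol 0.19) and 0.13 over the path through the other 2 arrays, where sterol less fatty acid was -0.051. Called members there numbered 1 with no background correction, the scanner's ratios and the negative control spots (2.94% against 5.15%, 10.5% and 6.55%), 2 over the other path (5.88% against 4.01%) and 8 at 0.6 (23.5% against 12.1%). Among called genes, Scd2 in EBSS reversed, to 0.13 with median centring. That setting also changed the sign of uncalled members: in all 23 of 34 changed sign in EBSS against RPMI (Srebf1 to 0.36, Sqle to 0.56, Ebp to 0.56 and Fdft1 to 0.34 among them), 20 with SB202190 against EBSS and 10 against RPMI. Relative to the median of all genes (0.81, -0.45 and 0.34) 7, 6 and 3 changed side. Fasn with SB202190 against EBSS fell short of a call at 0.19 with median centring and 0.55 with the median over probes. It also fell short at 0.93, 0.91, 0.96 and 0.94 with no background correction, the scanner's ratios, the other path and the negative control spots. Mvd passed the size for a call under 4 alternatives (1.01 to 1.15), and Hsd17b7 with SB202190 against RPMI under 3 (-1.01 to -1.11). The cause was not tested for these changes. Signal over background limits Scd1, Elovl6, Acat2 and Acaca most. No paired analysis was possible because each condition is 1 sample.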
